A study of Mus musculus with 59 samples.

Results

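The regions described here are 3422 sites in mouse liver that carried a BCL6 peak in fed animals, lacked a BCL6 peak after an overnight fast, and carried a PPARα peak in both feeding states. They were selected on these calls: a fed BCL6 peak was taken when no fasted BCL6 peak centre lay within 200 bp and when a fed and a fasted PPARα peak centre both did. They make up 21.9% of the 15642 BCL6 peaks of fed C57BL/6 livers, 42.8% of the 7986 fed BCL6 peaks that had no fasted counterpart, and 36.5% of the 9368 fed BCL6 peaks with PPARα in both states. They are called lost sites below.

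BCL6 is a zinc finger repressor of the BTB family that recruits corepressors such as BCOR, and its DNA motif resembles that of the STAT factors. PPARα is a nuclear receptor that binds DNA with RXR, is activated by fatty acids and drives fatty acid oxidation and ketogenesis in the fasted liver. PPARδ is a related receptor that recognises the same type of element, a direct repeat of the hexamer AGGTCA with a spacer of 1 base (DR1).

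The calls come from ChIP-seq of BCL6, PPARα and PPARδ in livers of male wild-type C57BL/6 mice, fed ad libitum or fasted overnight, and of BCL6 in livers of fed male Bcl6 fl/fl mice, which have floxed Bcl6 alleles and no Cre. Each of the 7 peak lists pools 3 replicates of a group, 21 of the 59 samples in the series. The lists hold positions only, with no height, count or p-value, so a site is either called or not called, no value has an error between replicates, and sequencing depth is unknown. A lost call is the absence of a position from the fasted list and gives no measure of how far BCL6 fell.

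Most lost sites were far from any fasted BCL6 peak. Of the 3422 sites, 12 had their nearest fasted centre at 200 to 250 bp, 16 at 250 to 400 bp, 176 at 400 to 1000 bp, 1053 at 1 to 10 kb, 1400 at 10 to 100 kb and 765 beyond 100 kb or with none on the chromosome. Just inside the limit, 26 fed BCL6 peaks with PPARα in both states had a fasted centre at 150 to 200 bp. At the other limit, 56 lost sites had the farther of their PPARα centres at more than 150 bp, and 25 fed BCL6 peaks without fasted BCL6 just missed the rule, with that centre at 200 to 250 bp. These values describe the rule and carry no test.

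Another 2 sets of fed BCL6 peaks served for comparison. The 5946 kept sites had BCL6 and PPARα called in both states and differ from the lost sites in the rule only by the fasted BCL6 call. The 2607 BCL6-alone lost sites lost the BCL6 call and had no PPARα centre within 200 bp in either state. The remaining fed BCL6 peaks were 1156 lost with PPARα in fed livers only, 801 lost with PPARα in fasted livers only and 1710 kept without PPARα in both states.

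**Figure D1:**
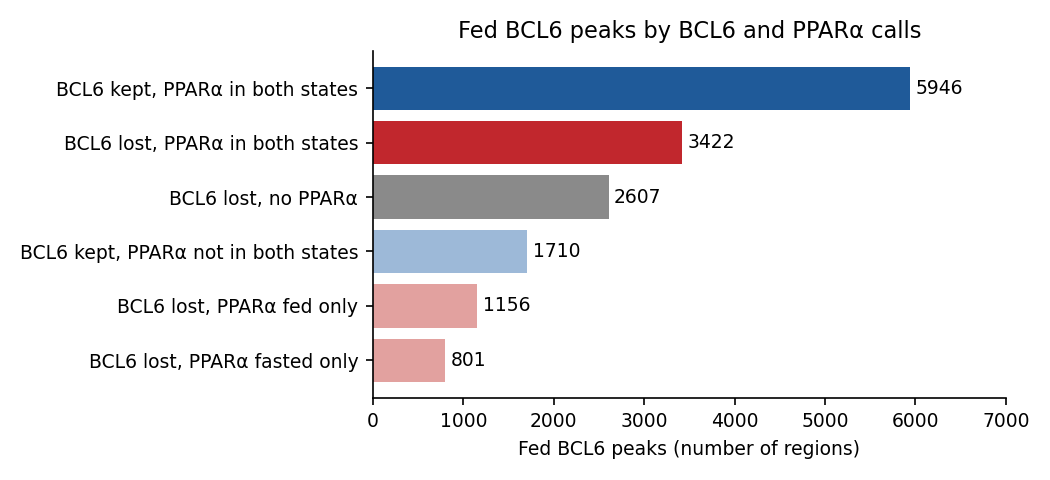
Number of fed BCL6 peaks (x axis) in each combination of BCL6 and PPARα calls, 15642 peaks in all. The lost sites with PPARα in both states number 3422, against 5946 that kept BCL6 beside PPARα in both states and 2607 that lost BCL6 without PPARα.

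A set of 10 sites is printed to show what these regions look like as DNA. Each is the 217 bases from the first to the last listed position on the plus strand of mm10, read from the RefSeq copy of the same assembly, GRCm38.p6. Capitals mark the best match to the DR1 element (up to 2 mismatches) or to the BCL6 element TTCCTAGAA (up to 1 mismatch), in either orientation. No lost site that lay outside exons and within 100 kb of its nearest gene, that gene being in the lists used below, held both elements, so 6 are shown for their DR1 element and 2 for their BCL6 element, in order of mismatches and then of distance to the transcription start site (TSS), a choice made after that result was seen. The 6 sites with DR1, 5 of them beside genes of fatty acid oxidation and storage, are these.
Acad11: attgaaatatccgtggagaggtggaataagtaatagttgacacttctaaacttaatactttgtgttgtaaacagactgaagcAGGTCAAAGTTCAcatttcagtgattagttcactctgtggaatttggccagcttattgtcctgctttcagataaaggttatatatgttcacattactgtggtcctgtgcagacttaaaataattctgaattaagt
Acadm: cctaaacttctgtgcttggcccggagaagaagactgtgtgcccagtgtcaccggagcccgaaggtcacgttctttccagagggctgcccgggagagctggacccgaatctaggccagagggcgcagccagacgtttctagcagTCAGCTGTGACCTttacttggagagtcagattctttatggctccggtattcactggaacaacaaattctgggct
Abcd3: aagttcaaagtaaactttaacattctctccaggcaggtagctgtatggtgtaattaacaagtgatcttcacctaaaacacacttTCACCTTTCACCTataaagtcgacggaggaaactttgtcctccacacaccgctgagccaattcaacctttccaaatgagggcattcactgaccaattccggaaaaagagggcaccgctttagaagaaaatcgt
Decr1: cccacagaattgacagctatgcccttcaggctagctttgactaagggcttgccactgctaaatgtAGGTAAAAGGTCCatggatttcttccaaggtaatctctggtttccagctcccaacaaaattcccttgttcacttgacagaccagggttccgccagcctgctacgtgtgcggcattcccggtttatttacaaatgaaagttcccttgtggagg
Plin2: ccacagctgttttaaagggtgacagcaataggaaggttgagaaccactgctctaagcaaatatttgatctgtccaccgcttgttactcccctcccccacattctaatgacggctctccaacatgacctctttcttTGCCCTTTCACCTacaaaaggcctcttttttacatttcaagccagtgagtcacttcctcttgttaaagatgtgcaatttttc
Nfil3: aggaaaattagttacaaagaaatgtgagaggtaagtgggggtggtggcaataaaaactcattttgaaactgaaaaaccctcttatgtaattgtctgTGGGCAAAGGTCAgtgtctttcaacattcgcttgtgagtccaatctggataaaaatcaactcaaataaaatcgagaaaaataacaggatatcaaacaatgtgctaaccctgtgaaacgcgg

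The Acad11 site (chr9:104064675-104064891) lies in an intron of Acad11, an acyl-CoA dehydrogenase gene, 1059 bp downstream of its TSS, and its DR1 match has 1 mismatch. The Acadm site (chr3:153944826-153945042) is 291 bp upstream of the gene for medium-chain acyl-CoA dehydrogenase, with 2 mismatches. The Abcd3 site (chr3:121814397-121814613) is intronic, 404 bp downstream of the TSS of the gene for the peroxisomal fatty acid transporter PMP70. The Decr1 site (chr4:15944759-15944975) is intronic, 510 bp downstream of the TSS of the gene for mitochondrial 2,4-dienoyl-CoA reductase. The Plin2 site (chr4:86671856-86672072) is intergenic, 1905 bp upstream of the gene for the lipid droplet coat protein perilipin 2. The Nfil3 site (chr13:52976291-52976507) is intronic in the gene for a bZIP repressor tied to the circadian clock, 4640 bp downstream of its TSS.

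The sites beside Acadm, Abcd3, Decr1 and Plin2 were all called for PPARδ in fed and in fasted livers and for BCL6 in Bcl6 fl/fl livers. The Acad11 site was called for PPARδ in fasted livers only and not for BCL6 in Bcl6 fl/fl livers. The Nfil3 site had none of these calls. The distance to the nearest fasted BCL6 centre was 259 bp at Acad11, close to the limit, 836 bp at Plin2, 1399 bp at Nfil3, 6609 bp at Decr1, 15178 bp at Acadm and 37827 bp at Abcd3.

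The 2 lost sites shown for their BCL6 element, and 1 kept site with both elements and 1 BCL6-alone lost site for comparison, are these.
Fads2: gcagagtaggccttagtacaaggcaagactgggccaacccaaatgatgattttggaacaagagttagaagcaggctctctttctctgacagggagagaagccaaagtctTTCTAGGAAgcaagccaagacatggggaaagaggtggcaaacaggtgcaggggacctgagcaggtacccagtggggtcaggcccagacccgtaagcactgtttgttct
Fbp1: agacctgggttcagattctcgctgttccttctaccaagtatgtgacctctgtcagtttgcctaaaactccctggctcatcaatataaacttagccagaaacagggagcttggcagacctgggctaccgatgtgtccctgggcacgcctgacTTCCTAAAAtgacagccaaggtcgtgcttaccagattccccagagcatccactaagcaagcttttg
Bcl6, kept: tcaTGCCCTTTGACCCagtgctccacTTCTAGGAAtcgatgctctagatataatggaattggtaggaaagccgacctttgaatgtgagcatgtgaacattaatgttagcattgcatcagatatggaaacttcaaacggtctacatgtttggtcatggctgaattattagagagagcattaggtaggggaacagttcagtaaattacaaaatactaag
Nr1h3, BCL6-alone: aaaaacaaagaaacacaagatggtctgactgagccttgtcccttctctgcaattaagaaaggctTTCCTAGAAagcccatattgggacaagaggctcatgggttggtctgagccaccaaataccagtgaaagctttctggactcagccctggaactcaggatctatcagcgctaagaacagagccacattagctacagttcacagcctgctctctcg

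The Fads2 site (chr19:10096437-10096653) lies in an intron of the fatty acid desaturase gene Fads2, 4958 bp downstream of its TSS, with an exact element centred 5 bp from the BCL6 peak centre. The Fbp1 site (chr13:62881391-62881607) lies in an intron of the gene for the gluconeogenic enzyme fructose-1,6-bisphosphatase, with 1 mismatch. The kept site (chr16:23996510-23996726) is 7766 bp upstream of Bcl6 itself, and the BCL6-alone site (chr2:91189119-91189335) is in an intron of Nr1h3, which encodes the oxysterol receptor LXRα. Both Fads2 and Fbp1 sites were called for BCL6 in Bcl6 fl/fl livers, and the Fads2 site also for PPARδ in fed livers.

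At the lost sites PPARα sat close to the former BCL6 centre and at nearly the same place in both states. The median distance from the BCL6 centre was 28.0 bp to the fed PPARα centre (quartiles 14.0 and 50.0 bp) and 30.0 bp to the fasted one (14.0 and 53.0 bp), and the fed and fasted PPARα centres were a median of 24.0 bp apart. The fed PPARα centre lay within 50 bp at 74.9% of the lost sites, against 79.5% of the kept sites, whose median distance was 25 bp. Since the rule limits these distances, they are given as a description.

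PPARδ was called at fewer lost sites than kept sites. In fed livers 1074 of 3422 lost sites had a PPARδ centre within 200 bp (31.4%, 95% Wilson interval 29.9 to 33.0%), against 2773 of 5946 kept sites (46.6%, 45.4 to 47.9%) and 26.9% of all fed BCL6 peaks. The odds ratio was 0.523 (95% interval 0.479 to 0.572, two-sided Fisher's exact test, adjusted p = 9.82e-48 over 3 calls). In fasted livers the shares were 6.78% of lost and 12.5% of kept sites, with 6.40% over all fed BCL6 peaks (odds ratio 0.509, 0.436 to 0.593, adjusted p = 2.88e-19). Among sites also called for BCL6 in Bcl6 fl/fl livers, the odds ratios were 0.619 (0.559 to 0.685) in fed and 0.558 (0.468 to 0.664) in fasted livers. Kept sites were chosen for a second BCL6 call, and the lists hold no peak height. In comparisons with kept sites, a difference in PPARδ calls therefore cannot be told apart from one in peak strength. Intervals of shares cover counting error only, and the tests count regions, which are not replicates and are not independent of their neighbours.

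Where PPARδ was called in fed livers, its fasted call was also rarer at lost sites. Of the 1074 lost sites with fed PPARδ, 194 kept it on fasting (18.1%, 15.9 to 20.5%), against 665 of 2773 kept sites (24.0%, 22.4 to 25.6%), an odds ratio of 0.699 (0.585 to 0.835, Fisher's exact p = 7.04e-05). The fasted PPARδ list is shorter throughout, with 2399 peaks against 7328 in fed livers, and 20.8% of all fed BCL6 peaks with fed PPARδ kept it. A further 38 lost sites had PPARδ in fasted livers only, and 2310 (67.5%) had it in neither state.

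BCL6 itself was called again at most lost sites in a separate set of fed livers. In Bcl6 fl/fl mice 2216 of the 3422 lost sites had a BCL6 centre within 200 bp (64.8%, 63.1 to 66.3%), against 5377 of 5946 kept sites (90.4%, 89.7 to 91.2%), 37.4% of BCL6-alone lost sites and 69.4% of all fed BCL6 peaks. The odds ratio was 0.194 against kept sites (0.174 to 0.217) and 3.08 against BCL6-alone lost sites (2.77 to 3.42). Kept sites were chosen for a second BCL6 call, the fasted one, so the rule itself favours a higher share there. BCL6-alone lost sites were chosen for lacking PPARα, and the study reported its strongest binding at peaks that BCL6 and PPARα share. Both ratios are therefore descriptions, with no test. The centres found again lay a median of 24.0 bp from the C57BL/6 centre. The other 1206 lost sites thus had a BCL6 call in a single pooled list, so results are also given for the 2216 alone where they differ.

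At BCL6-alone lost sites fed PPARδ was called at 58 of 2607 sites (2.22%) and fasted PPARδ at 4 (0.153%). Since these sites were chosen for lacking PPARα, a receptor that recognises the same type of element, this gap from the lost sites is given as a description, with no test.

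**Figure D2:**
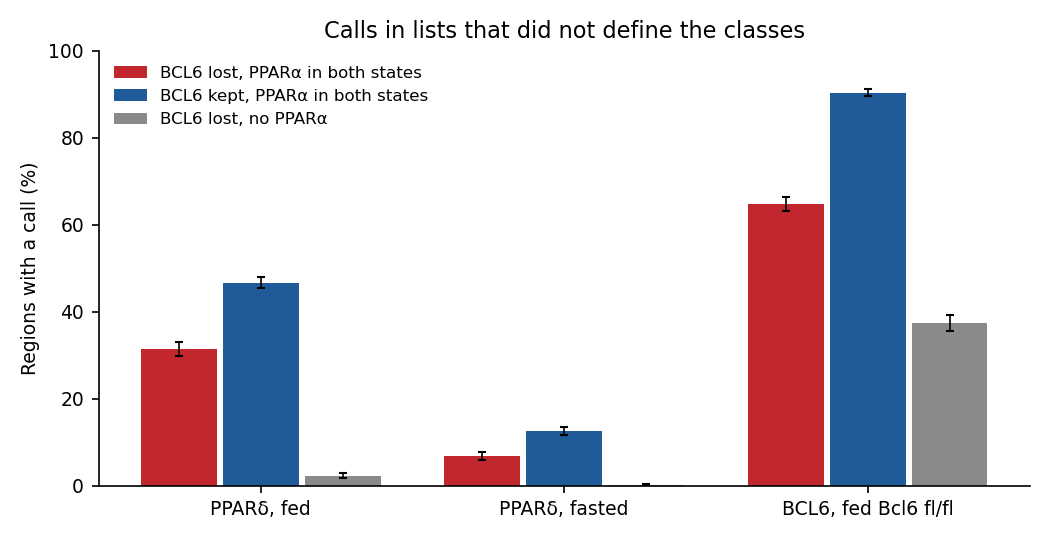
Share of regions (y axis, %) with a PPARδ call in fed or fasted livers or a BCL6 call in fed Bcl6 fl/fl livers, for the 3 classes of fed BCL6 peaks; error bars are 95% Wilson intervals. The lost sites with PPARα stand between the other classes for each call, at 31.4%, 6.78% and 64.8%.

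Within the lost sites, the calls went together. BCL6 was called in Bcl6 fl/fl livers at 76.0% of the 1074 lost sites with fed PPARδ and at 59.6% of the 2348 without it. A DR1 element was present at 20.3% of the former and 11.4% of the latter, and the median GC content was 46.5% and 44.2%. Read the other way, 44.9% of the 486 lost sites with a DR1 element had fed PPARδ and 11.5% had fasted PPARδ, against 29.2% and 5.99% of the 2936 without one. These splits are descriptions within 1 class and were not tested.

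The sequence of the lost sites was poor in BCL6 elements. The element was found at 266 of 3422 lost sites (7.77%, 6.92 to 8.72%), 776 of 5946 kept sites (13.1%, 12.2 to 13.9%), 707 of 2607 BCL6-alone lost sites (27.1%, 25.4 to 28.9%) and 16.6% of all fed BCL6 peaks. In 217-bp windows laid along the whole genome the share was 7.91%. The odds ratio was 0.562 against kept sites (0.485 to 0.650) and 0.227 against BCL6-alone lost sites (0.195 to 0.264). Kept sites were chosen for a second BCL6 call, and BCL6-alone lost sites for BCL6 without PPARα. The rule itself can favour the BCL6 element in both, so these ratios are descriptions with no test. Exact elements were rare in each class, at 14 lost sites (0.409%), 66 kept sites (1.11%) and 97 BCL6-alone lost sites (3.72%).

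The STAT element TTCNNNGAA, which an exact BCL6 element always contains, followed the same order. It was present at 9.15% of lost, 12.7% of kept and 23.9% of BCL6-alone lost sites. The share was 15.4% over all fed BCL6 peaks and 8.06% over genome windows. The odds ratio against kept sites was 0.694 (0.604 to 0.798), a description too, since kept sites were chosen for a second BCL6 call. Of the 313 lost sites with the STAT element, 156 also held a BCL6 element.

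The DR1 element was more common at lost sites than at BCL6-alone lost sites, which the rule sets apart by PPARα, and did not pass the test against kept sites. It was found at 486 lost sites (14.2%, 13.1 to 15.4%), 795 kept sites (13.4%, 12.5 to 14.3%) and 193 BCL6-alone lost sites (7.40%, 6.46 to 8.47%), against 11.6% of all fed BCL6 peaks and 2.58% of genome windows. The odds ratio was 1.07 against kept sites (0.950 to 1.21, adjusted p = 0.377). Against BCL6-alone lost sites it was 2.07 (1.74 to 2.47). Those sites were chosen for lacking PPARα, which recognises this element, so that ratio is a description with no test. In the central 50 bp the odds ratio against kept sites rose to 1.29 (1.02 to 1.62, unadjusted p = 0.0348), and with 1 fewer mismatch to 1.34 (1.04 to 1.72, unadjusted p = 0.0285).

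Position within the peak gave the same picture. In the pair of 20-bp bins at the centre of the lost sites, BCL6 elements were counted at 0.774 per 100 sites and bin, level with 0.785 in the flanks 200 to 500 bp away, whereas the centre exceeded the flanks by a ratio of 2.02 at kept and 5.63 at BCL6-alone lost sites. DR1 elements were centred, at 2.05 per 100 sites and bin against 0.331 in the flanks, a ratio of 6.18, with 4.62 at kept sites and 2.29 at BCL6-alone lost sites. The FOXA element TGTTTAC and the C/EBP element TTGCNCAA, motifs of abundant hepatocyte factors, were centred at lost sites too, with ratios of 4.91 and 6.95. They were centred in the other classes as well, with 4.53 and 9.13 at kept sites and 4.16 and 5.71 at BCL6-alone lost sites. These ratios are descriptions with no test.

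**Figure D3:**
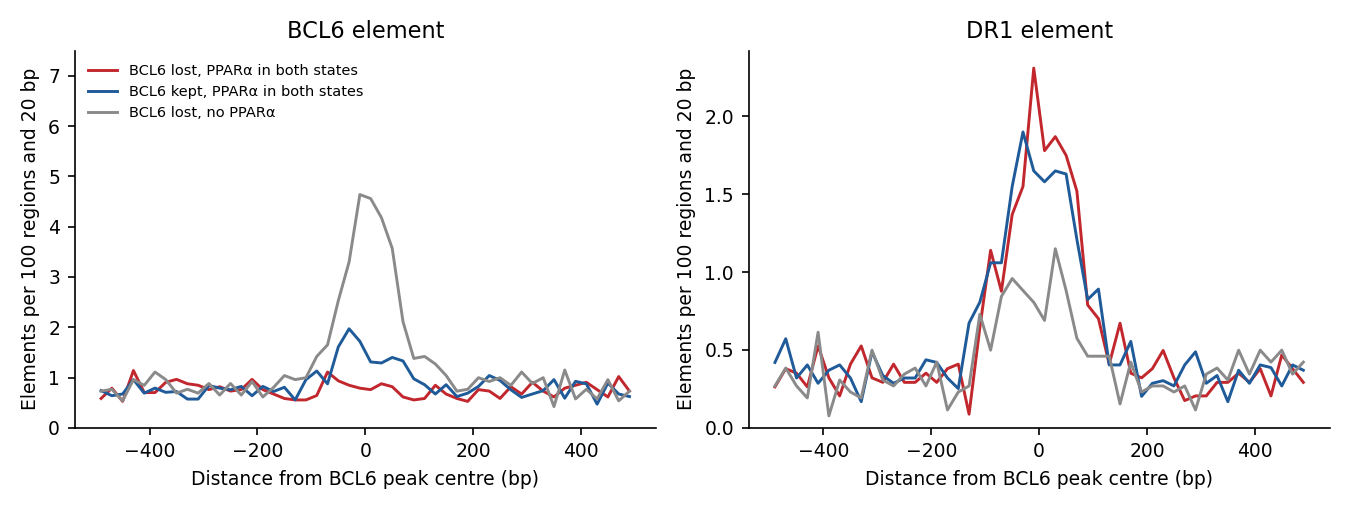
Elements per 100 regions in 20-bp bins (y axis) by distance from the BCL6 peak centre (x axis, bp), for the BCL6 element (left) and DR1 (right) in 3 classes of fed BCL6 peaks. The line for lost sites with PPARα is flat for the BCL6 element (0.774 at the centre, 0.785 in the flanks) and peaked for DR1 (2.05 and 0.331).

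Most lost sites held neither of the main elements. A DR1 without a BCL6 element was present at 445 sites (13%), a BCL6 element without DR1 at 225 (6.58%), both at 41 (1.20%) and neither at 2711 (79.2%), against 75.3% with neither at kept sites. None of the 13 elements was found at 1027 lost sites (30.0%), 26.5% of kept sites and 26.9% of BCL6-alone lost sites. A missing match says only that these letters were not in the window.

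Among the other elements of liver factors, only C/EBP differed between lost and kept sites after adjustment. It was present at 9.79% of lost and 12.7% of kept sites, with 10.2% over all fed BCL6 peaks (odds ratio 0.745, 0.650 to 0.854, adjusted p = 7.95e-05), a call not made in the central 50 bp. The HNF4 element CAAAGTCCA (up to 1 mismatch, and able to overlap DR1) was the most common, at 21.3% of lost sites, 23.0% of kept sites and 21.0% of all fed BCL6 peaks. The HNF6 element TATTGAT was present at 9.94% of lost sites, 11.3% of kept sites and 12.0% of all, and FOXA at 9.85%, 10.9% and 10.2%.

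The remaining elements did not pass the test against kept sites. AGGTCA repeats with a spacer of 4 bases (DR4, the LXR type) stood at 5.29% of lost sites with a background of 5.36%, and inverted repeats with 1 base (IR1, the FXR type) at 4.03% with 3.82%. The glucocorticoid receptor element ACANNNTGT was at 9.23% with 9.14%, the AP-1 element TGAGTCA at 6.05% with 5.65%, the E-box CACGTG at 3.68% with 3.58% and the CREB element TGACGTCA at 0.205% with 0.294%. Against BCL6-alone lost sites 7 elements differed. BCL6, STAT and HNF6 were rarer at the lost sites, and DR1, IR1, HNF4 and C/EBP more common. Of these, IR1 and C/EBP did not pass among sites called again in Bcl6 fl/fl livers. Since the rule sets these classes apart by PPARα, the differences in DR1, and in HNF4, which can overlap it, are descriptions only. So are those in BCL6 and STAT, since BCL6-alone lost sites were chosen for BCL6 without PPARα. HNF6 stood at 15.6% of BCL6-alone lost sites, an odds ratio of 0.596 (0.511 to 0.696, adjusted p = 1.60e-10).

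**Figure D4:**
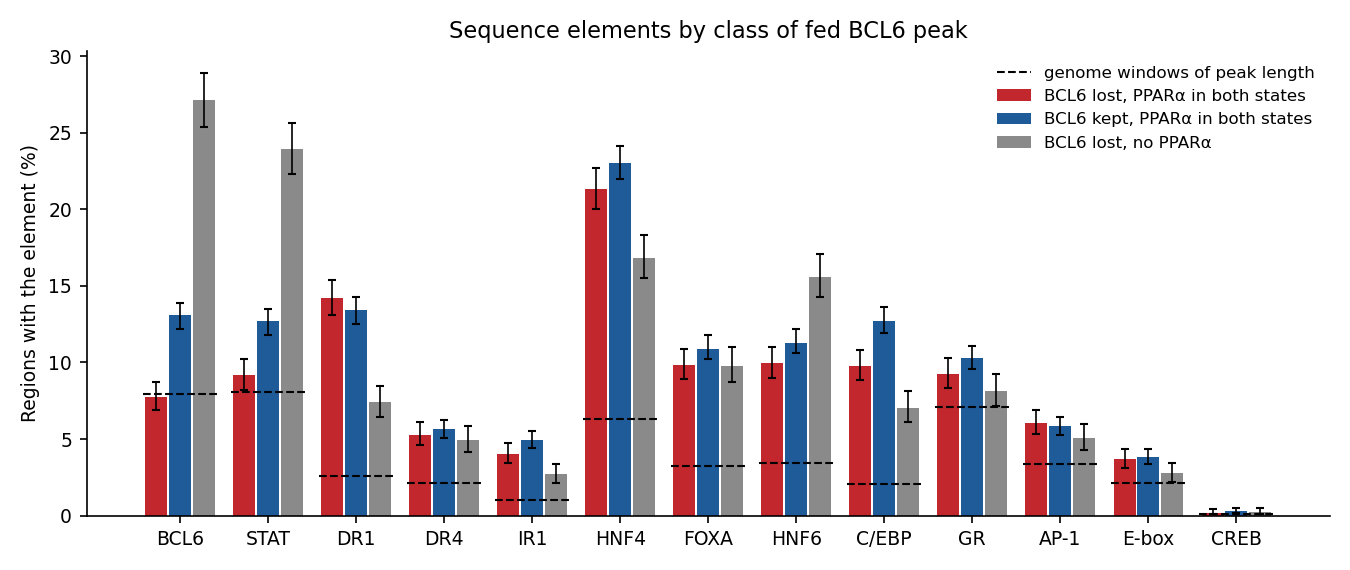
Share of regions (y axis, %) with each of 13 sequence elements in the 3 classes of fed BCL6 peaks; error bars are 95% Wilson intervals and dashed lines the share of 217-bp genome windows. For the BCL6 element the lost sites with PPARα stand at 7.77% beside 7.91% of genome windows, and for DR1 at 14.2% beside 2.58%.

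Base composition of lost and kept sites was close, with a median GC content of 44.7% and 45.2%, against 42.4% at BCL6-alone lost sites. The median share of repeat-masked bases was 9.22% at lost sites and 8.76% at kept sites.

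Lost sites lay mostly outside promoters. Taking a promoter as the 1000 bp before and the 100 bp after a curated RefSeq TSS, 175 lost sites (5.11%) were in promoters, 1784 (52.1%) elsewhere in genes and 1463 (42.8%) between genes, against 4.36%, 52.4% and 43.3% of all fed BCL6 peaks. None of these shares differed from kept sites by the test (promoters 4.52%, odds ratio 1.14, 0.936 to 1.38, adjusted p = 0.255). A pair of settings gave a difference in promoters: among peaks called again in Bcl6 fl/fl livers the odds ratio was 1.39 (1.12 to 1.73), and with the Bcl6 fl/fl list as the source of fed BCL6 peaks 9.54% of lost and 4.55% of kept sites were in promoters (odds ratio 2.21, 1.89 to 2.59). The direction turned, without passing the test, with a wider promoter (0.978) and with predicted transcripts included (0.967).

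The median distance to the TSS of the nearest protein-coding gene was 25612 bp for lost and 24876 bp for kept sites, and 28.9% of lost sites lay within 10 kb of one. By chromosome the lost share of fed BCL6 peaks ranged from 17.9% on chromosome 13 to 27% on X, with 0 of 2 on Y. Lost sites were scattered among other BCL6 peaks: 26.6% had a kept site within 10 kb and 15.3% another lost site, with median distances of 41300 bp and 81548 bp, and 17.6% of kept sites had a lost site within 10 kb.

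Assigned to the nearest coding TSS within 1 Mb, the lost sites fell on 2484 genes, of which 1856 had 1 lost site, 628 had 2 or more and 20 had 5 or more. There were 2101 genes with at least 2 fed BCL6 peaks at PPARα in both states. Of these, 1279 (60.9%) had sites of both kinds, 644 (30.7%) had kept sites only and 178 (8.47%) had lost sites only. Of all such peaks 36.5% were lost sites, a share at which genes with several peaks often hold both kinds. These counts were not tested.

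Nrip1, which encodes the nuclear receptor corepressor RIP140, had the most lost sites, 8 of its 16 fed BCL6 peaks. Over all fed BCL6 peaks the share was 21.9%. A further 5 of the Nrip1 peaks lost the BCL6 call without PPARα in both states. The genes named here were picked on their number of lost sites, so these counts carry no test. Lpp, a focal adhesion gene that lies beside Bcl6 on chromosome 16, had 7 of 28, Rora, which encodes an orphan nuclear receptor, 7 of 25, the adhesion gene Nectin1 7 of 13 and the receptor phosphatase gene Ptprg 7 of 17. Adgrl2 had 6 of 33 (18.2%, below the share over all fed BCL6 peaks), the focal adhesion gene Tns1 6 of 11, Zfp462 6 of 14, 3110040M04Rik 5 of 13 and Chn2 5 of 12. At Nrip1 none of the 8 lost sites had a PPARδ call in either state and 7 were called for BCL6 in Bcl6 fl/fl livers, whereas 4 of the 7 lost sites of Nectin1 had fed PPARδ.

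Among the 835 genes with at least 5 fed BCL6 peaks, 192 had no lost site. Those named next were picked for the highest share, from few peaks each, and 21.9% is the share over all fed BCL6 peaks. Fez2 and Lrig1, a negative regulator of growth factor receptors, were among those with the highest share, 4 of 5 each. 2900026A02Rik had 4 of 6, Zfp217 5 of 8, and Arpp21, Clic4, Cobll1 and Egln3, a hydroxylase gene of the hypoxia response, 3 of 5 each.

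Lost sites near genes of fatty acid oxidation were counted by step of the pathway, with no test between steps. The 16 genes of mitochondrial β-oxidation had 12 lost sites among 38 fed BCL6 peaks (31.6%, against 21.9% over all fed BCL6 peaks), at 9 genes. Acadm, Decr1 and Hadha, which encodes the α subunit of the trifunctional protein, had 2 each, and both fed BCL6 peaks of Hadha were lost sites. The 12 genes of peroxisomal β-oxidation had 8 of 45 (17.8%), among them 4 at Abcd3 and 1 each at Acaa1b, Crat and Hsd17b4. The carnitine shuttle genes Cpt1a, Cpt2 and Slc22a5 had no lost site among 7 fed BCL6 peaks, all of them kept sites, a count that allows a share of up to 42.9% and so includes the background.

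Other lipid steps are set beside the same background of 21.9%. The ω-oxidation genes had 2 of 22 (9.09%, Cyp4a31 and Por), the ketone body genes 2 of 17 (11.8%, 1 at Bdh1) and the acyl-CoA thioesterases 2 of 17 (11.8%, Acot1 and Acot12). Lipid droplet and lipolysis genes had 3 of 14 (21.4%), at Plin2, Abhd5, the lipase activator CGI-58, and Hilpda. The fasting hormones had 5 of 26 (19.2%), with 2 each at Angptl4 and Angptl8, secreted inhibitors of lipoprotein lipase, and 1 at Fgf21. Pdk4 and Pdp1, which set the activity of pyruvate dehydrogenase, had 1 each.

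PPARδ calls were common at the lost sites of the 6 lists of fatty acid use (mitochondrial, peroxisomal and ω-oxidation, carnitine shuttle, ketone bodies and thioesterases). Of their 26 lost sites 15 (57.7%) had fed PPARδ and 12 (46.2%) fasted PPARδ, against 31.4% and 6.78% of all lost sites, and 57 and 27 of the 85 kept sites of the same genes had them (67.1% and 31.8%). None of the 26 held a BCL6 element, a count that allows a share of up to 11.5% and so includes the 7.77% of all lost sites, and 8 of the 85 kept sites held one. A DR1 element was at 7 of the 26 (26.9%) and at 17 of the 85 kept sites, against 14.2% of all lost sites. This grouping of lists was made after the values were seen and was not tested.

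Named sites show the calls behind these counts. At Acadm both lost sites, 291 and 3807 bp upstream of the TSS, had PPARδ in fed and fasted livers and BCL6 in Bcl6 fl/fl livers. The same held for the lost sites of Eci2 (215 bp upstream) and Eci1 (2609 bp downstream), which encode enoyl-CoA isomerases, and for 1 of the 2 at Hadha (2838 bp downstream). The Hsd17b4 site (617 bp downstream) had both PPARδ calls and no BCL6 call in Bcl6 fl/fl livers. At Angptl4 the intronic site 2129 bp downstream had PPARδ in both states, and the site 3544 bp upstream in fed livers only. The lost sites of Bdh1 and Por had no PPARδ call but were called for BCL6 in Bcl6 fl/fl livers.

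The lists outside fatty acid use are set beside the same background of 21.9%. Counted within 1 Mb, lipogenesis, gluconeogenesis, growth hormone, nuclear receptor and corepressor genes lay close to it. Lipogenesis genes had 10 of 49 (20.4%), with 2 at Elovl6 and 1 at Fasn, the fatty acid synthase gene, where the single fed BCL6 peak was a lost site, as it was at Acaca. Gluconeogenesis genes had 8 of 38 (21.1%), with 3 at Ppargc1a, the gene for the coactivator PGC-1α, and 2 at Ppargc1b. Insulin signalling genes had 14 of 111 (12.6%), with 4 at Irs2, 3 at Pik3r1 and 61 kept sites beside them. Genes of growth hormone signalling, STATs and SOCS proteins had 14 of 67 (20.9%), with 4 at the receptor gene Ghr, 4 at Bcl6 and 3 of 5 at Stat5b, 1 of them 78 bp upstream of a TSS. The 4 sites assigned to Bcl6 lay 80739 to 132153 bp upstream.

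Nuclear receptor genes had 23 of 107 (21.5%), 7 of them at Rora, 4 each at Nr5a2 and Nr3c1, the glucocorticoid receptor gene, and 2 of 3 at Hnf4a. At Ppard the single fed BCL6 peak, in an intron, was a lost site. Genes of hepatocyte factors had 7 of 61 (11.5%), 4 of them assigned to Foxa2 at distances of 226 to 321686 bp. Corepressor genes had 12 of 52 (23.1%), and 4 at Bcor, 4 at Tbl1xr1 and both peaks of Tbl1x were among them. Counted within 100 kb, corepressor genes had 8 of 26 (30.8%). Clock genes had 11 of 39 (28.2%), with 3 of 5 at Nfil3 and 2 each at Arntl, Hlf and Bhlhe40. Those of Bhlhe40 lay 188537 and 206836 bp upstream, in introns of Itpr1. For comparison, ribosomal protein genes had 5 of 33 (15.2%) and olfactory receptor genes 4 of 35 (11.4%). Sites of 1 gene share its neighbourhood, so these counts carry no test.

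**Figure D5:**
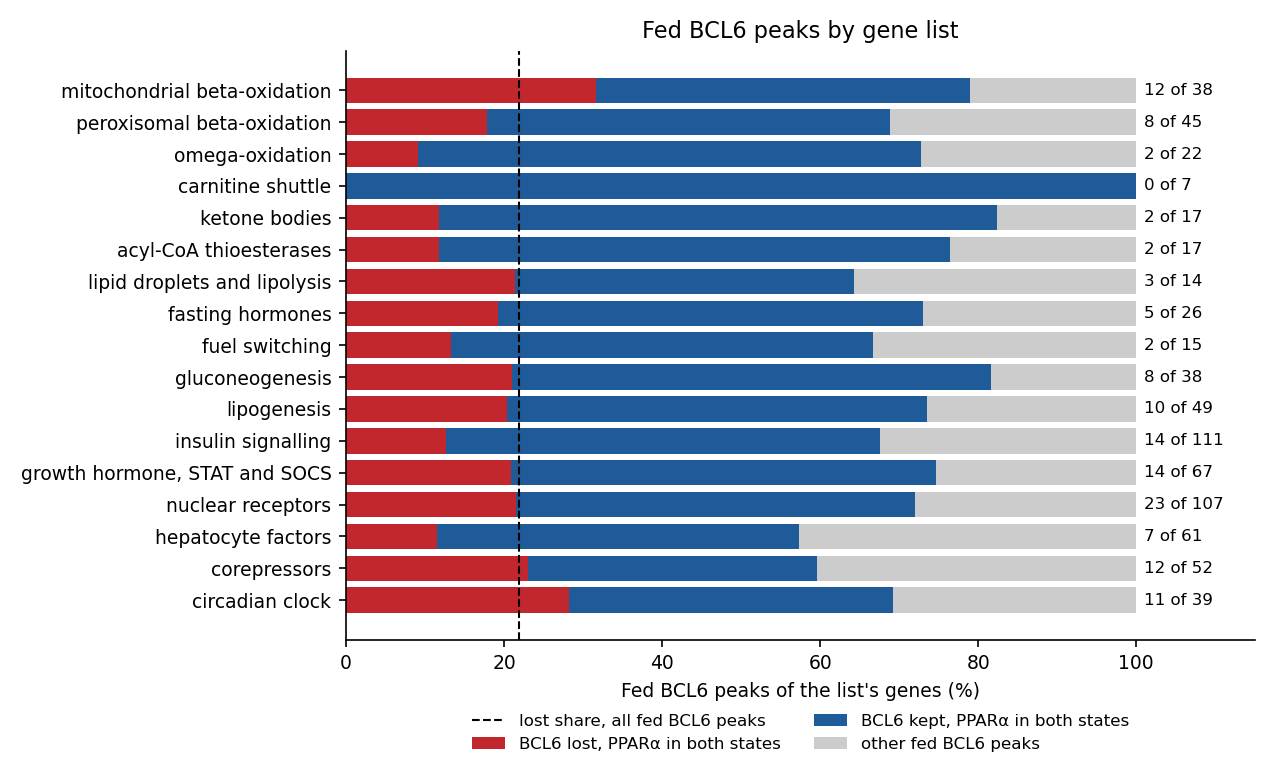
Fed BCL6 peaks of the genes in 17 lists (x axis, % of the list's fed BCL6 peaks), split into lost sites with PPARα in both states, kept sites and other peaks; numbers at the right give lost sites of all fed BCL6 peaks, and the dashed line marks 21.9%. Mitochondrial β-oxidation (12 of 38) and clock genes (11 of 39) stand to the right of the line, and the carnitine shuttle has 0 of 7.

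Genes for which the study tested a region by ChIP-qPCR were counted by all fed BCL6 peaks nearest to them, not by the tested regions. By distance to the TSS, the Angptl4 lost site 2129 bp downstream lay close to a tested region. Distances here are to the nearest TSS of a gene, which can differ from the TSS that the study used. They therefore cannot settle which other lost sites lay close to a tested region. Angptl4 had 2 lost sites of 4 fed BCL6 peaks, and Bdh1, Cd36, Cyp4a31, Fads2 and Por had 1 each beside 1 to 5 kept sites. Abhd2, Acot3, Acot4, Ehhadh and Idh2 had kept sites and no lost site, and no fed BCL6 peak was nearest to Acot2. Abhd2 and Idh2 each had 1 other fed BCL6 peak, and Ehhadh 2, that lost the BCL6 call without PPARα in both states.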

How the data were processed

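The deposited files used here are 7 peak lists from ChIP-seq of mouse liver. Each lists chromosome, start and end of the peaks of 1 group, pools 3 replicates and gives no other value, so the deposited unit is a position, with no read count and no depth. Bowtie was the aligner and mm10 the build that the authors used, with at most 1 read counted per start. For peaks, the authors relied on HOMER with DESeq2, requiring at least 2-fold over input and a false discovery rate below 0.05. Whether starts count from 0 or 1 is not stated, and they were read as 1-based, 217 bases a peak.

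Peak centres within 200 bp counted as shared. Sequence and annotation came from RefSeq GRCm38.p6, the same build, with 45756 curated transcripts of 20971 protein-coding genes. The 13 elements were searched on both strands of the whole peak. Classes were compared with two-sided Fisher's exact tests on counts of peaks, with odds ratios, 95% Woolf intervals and Benjamini-Hochberg adjusted p-values within families of 3 calls, 3 positions and 13 elements. These tests treat peaks as units and say nothing of the spread between animals. Shares have 95% Wilson intervals. A share of 0 is given with the limit that 3 counts allow. Genes were assigned by nearest protein-coding TSS within 1 Mb. Genes named are the 10 with the most lost sites, the 10 with the highest share among those with at least 5 fed BCL6 peaks, examples from 17 gene lists and the 13 genes with a ChIP-qPCR region in the study. Some genes that these rules select are not reported here. The members and lists were chosen with earlier results of these data known. Python 3.11.15, NumPy 2.4.6, SciPy 1.17.1, Numba 0.67.0 and Matplotlib 3.10.9 were used, and the scripts were tested on simulated data.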

Additional observations from a re-analysis of the deposited data

How the results depend on the processing

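The number of lost sites, the PPARδ, Bcl6 fl/fl, promoter, BCL6 element and DR1 comparisons with kept sites, and the fed PPARδ, Bcl6 fl/fl, BCL6 element and DR1 comparisons with BCL6-alone lost sites were recomputed with centre distances of 100 and 400 bp, interval overlap, loss required over 1000 bp, autosomes and X only, sites at least 50 kb apart and the Bcl6 fl/fl fed list in place of the C57BL/6 list, the last not for the Bcl6 fl/fl call itself. No alternative was run for intragenic and intergenic shares. Sequence results were also recomputed in the central 100 and 50 bp, with 1 fewer mismatch and without soft-masked matches, and promoters with wider definitions. A required BCL6 call in Bcl6 fl/fl livers and the inclusion of predicted transcripts were chosen after seeing the data. Of 154 alternative values, 143 kept their direction and side of the threshold or, for counts, stayed within 1.5 times. Alternatives of single comparisons used unadjusted p-values of Fisher's exact test.

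Against kept sites, odds ratios ranged from 0.511 to 0.619 for fed PPARδ and 0.501 to 0.597 for fasted PPARδ, all past the threshold. For the BCL6 element and the Bcl6 fl/fl call, given as descriptions, they ranged from 0.366 to 0.588 and from 0.191 to 0.201. The DR1 element passed the threshold in the central 50 bp (1.29, exact p = 0.0348) and with 1 fewer mismatch (1.34, exact p = 0.0285), but not in the other alternatives (from 1.04). The promoter share passed it with the Bcl6 fl/fl list (odds ratio 2.21, exact p = 1.40e-23) and with the Bcl6 fl/fl call required (1.39, exact p = 0.00382), and the direction turned, without passing, with the widest promoter tried (0.978) and with predicted transcripts (0.967). The number of lost sites fell to 2216 with that call required and was 4467 with the Bcl6 fl/fl list, which also raised the elements past the threshold from 3 to 9. Counting genes within 100 kb left 9 lost sites of 52 fed BCL6 peaks (17.3%) for growth hormone, STAT and SOCS genes. It left 4 of 38 (10.5%) for hepatocyte factors and 8 of 55 (14.5%) for insulin signalling. Within 1 Mb these shares were 20.9%, 11.5% and 12.6%, and the share over all fed BCL6 peaks was 21.9%. The cause of these differences was not tested.

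No paired analysis was possible because each list pools its replicates. Leaving out a replicate and a stricter peak threshold were not run, since the lists hold neither replicate values nor scores. Depth is unknown, and an absent call cannot be told apart from a weaker one.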
